A study of Mus musculus with 23 samples.

Results

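The *Cyp2c* genes of mouse liver encode cytochrome P450 enzymes, and 10 of them were examined here, namely *Cyp2c29*, *Cyp2c37*, *Cyp2c38*, *Cyp2c39*, *Cyp2c40*, *Cyp2c44*, *Cyp2c50*, *Cyp2c54*, *Cyp2c55* and *Cyp2c70*. They were chosen by the gene name that the array files give to each probe. This gave 13 probes of the 56605 on the array, or 10 of 37074 gene names. Of these, 12 probes of 9 genes were bright enough to be tested, among 32087 tested probes of 21056 genes. *Cyp2c44*, *Cyp2c50* and *Cyp2c55* had 2 probes each.

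Liver RNA came from 23 male C57Bl6/J mice, with 1 single-colour array per mouse. WT CONT (6 mice) and WT PCN (5 mice) were wild-type animals bought at 6 weeks of age, and *Pxr*-/- CONT (6 mice) and *Pxr*-/- PCN (6 mice) lacked the pregnane X receptor in the whole body and came from a colony bred in the study's own facility, so that genotype and colony cannot be told apart. The age of the *Pxr*-/- mice is not given in the sources used here. PCN mice were injected intraperitoneally each day for 4 days with pregnenolone 16α-carbonitrile, a rodent PXR ligand, at 100 mg/kg in corn oil, CONT mice received the corn oil alone, and all were killed 6 h after the last dose, with free access to food, a state that the labels call fed and the study's text calls semi-fasted. All 8 hepatocyte marker genes (*Alb*, *Apoa1* and others) were well above background on every array, and their summed signal lay between 20.35 and 20.60 (log2) over all mice. Of 8 intestinal epithelium markers, *Vil1*, *Cdx1*, *Cdx2*, *Cdh17*, *Krt20* and *Muc2* did not reach the brightness needed for testing. The *Nr1i2* probe, which measures the receptor's own transcript, did not separate the genotypes (*Pxr*-/- CONT against WT CONT -0.03 on the log2 scale, SE 0.28), so the labels could not be checked with it.

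Cytochromes P450 are heme enzymes of the endoplasmic reticulum that add oxygen to drugs, steroids and fatty acids, drawing electrons from P450 oxidoreductase. The CYP2C enzymes are abundant in hepatocytes, where several of them turn arachidonic acid into epoxides and hydroxy acids, and *Cyp2c70* makes the muricholic acids that set mouse bile apart from human bile. PXR is a nuclear receptor that pairs with RXR on repeats of the letters AGGTCA or close variants and switches on drug-metabolising genes when a ligand is bound. Its relative CAR (*Nr1i3*) shares many of the same target genes.

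All member probes lie on chromosome 19 (mm9), where the *Cyp2c* genes form a cluster. The probes of the cluster start at 39110063 for *Cyp2c55* and end at 40228028 for *Cyp2c70*, while *Cyp2c44*, which RefSeq now calls *Cyp2c23*, lies apart from 44079535 to 44088190. Since the genes are close relatives, the transcripts that each probe lists were matched to RefSeq genes. The probe of *Cyp2c37* also listed a *Cyp2c50* transcript, and the probe of *Cyp2c40* also listed *Cyp2c68*. Each of the other 11 member probes listed 1 gene by its matched transcripts. For *Cyp2c38* only 1 of 3 listed RefSeq transcripts was matched, so its probe may list another gene. The last 12 bases of the *Cyp2c37* probe, ggctttaattca, were the first 12 bases of the main *Cyp2c50* probe. By the listed transcripts, the signals of the *Cyp2c37* and *Cyp2c40* probes may be shared between genes. An overlap of 12 bases alone does not show this. The probe sequences below, which lie in or almost wholly in coding sequence, are those behind the 3 genes that rose with PCN and the shared *Cyp2c40* probe.
Cyp2c55 (chr19:39110063-39110122, + strand): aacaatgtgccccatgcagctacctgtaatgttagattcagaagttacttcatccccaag
Cyp2c38 (chr19:39465415-39465474, - strand): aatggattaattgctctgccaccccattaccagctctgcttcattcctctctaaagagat
Cyp2c29 (chr19:39403642-39403701, + strand): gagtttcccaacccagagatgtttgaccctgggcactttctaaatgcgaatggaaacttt
Cyp2c40 and Cyp2c68 (chr19:39861388-39877026, - strand, across introns): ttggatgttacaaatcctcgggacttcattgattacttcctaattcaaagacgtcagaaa

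RefSeq promoter windows (GRCm38.p6, from 250 bases before to 50 after the start site) were at hand for 8 members. The 200 bases before the start site are printed for the members that rose with PCN and for *Cyp2c37* and *Cyp2c50*, whose levels moved together from mouse to mouse. Capitals mark the letters TATAAA near the start site, the letters CAAAGTC found in binding sites of the hepatocyte factor HNF4A, and the receptor motif AGGTCA with its variant AGTTCA, on either strand.
Cyp2c55 (chr19:39006819-39007018, + strand): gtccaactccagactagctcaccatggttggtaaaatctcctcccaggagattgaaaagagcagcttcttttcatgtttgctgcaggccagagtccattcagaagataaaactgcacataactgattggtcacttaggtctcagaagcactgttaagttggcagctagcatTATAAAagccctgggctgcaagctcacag
Cyp2c38 (chr19:39463076-39463275, - strand): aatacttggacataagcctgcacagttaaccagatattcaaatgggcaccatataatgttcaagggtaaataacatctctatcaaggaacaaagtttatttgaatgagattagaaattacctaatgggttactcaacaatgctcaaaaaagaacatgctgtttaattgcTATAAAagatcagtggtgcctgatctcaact
Cyp2c29 (chr19:39286885-39287084, + strand): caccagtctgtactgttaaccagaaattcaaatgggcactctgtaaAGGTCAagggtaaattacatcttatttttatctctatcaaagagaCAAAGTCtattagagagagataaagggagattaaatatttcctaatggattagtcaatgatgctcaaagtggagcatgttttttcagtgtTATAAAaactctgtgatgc
Cyp2c37 (chr19:39992224-39992423, + strand): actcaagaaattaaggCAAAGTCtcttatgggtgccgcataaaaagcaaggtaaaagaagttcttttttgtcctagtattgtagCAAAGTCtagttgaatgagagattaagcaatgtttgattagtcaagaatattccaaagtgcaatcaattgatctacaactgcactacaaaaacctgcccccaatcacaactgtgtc
Cyp2c50 (chr19:40089479-40089678, + strand): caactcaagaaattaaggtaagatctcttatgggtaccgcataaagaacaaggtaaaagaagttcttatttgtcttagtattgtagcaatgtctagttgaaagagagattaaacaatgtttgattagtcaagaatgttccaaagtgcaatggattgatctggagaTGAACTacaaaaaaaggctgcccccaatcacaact

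The 250 bases upstream of *Cyp2c37* and of *Cyp2c50* aligned over 245 bases with 215 identities, or 86.0% of 250, and those of *Cyp2c29* and *Cyp2c38* over 228 bases with 187 identities, or 74.8% of 250. On the same scale *Cyp2c55* matched the other windows of the family at 40.0% to 50.4%; unrelated windows were not aligned for comparison. The 8 members have 9 windows in all, since *Cyp2c39* has 2. A TATAAA was found in 6 of the 9 windows, against 13.6% of 32851 mouse promoter windows, and began 29 bases before the start site in *Cyp2c55*, 31 in *Cyp2c38* and 19 in *Cyp2c29*. CAAAGTC was present in 6 of 9, against 4.44% of all windows, in *Cyp2c29*, *Cyp2c37*, *Cyp2c40*, *Cyp2c70* and both windows of *Cyp2c39*. Its longer form CAAAGTCCA was present in 2 of them, *Cyp2c40* and *Cyp2c70* (0.475% of all windows), and the forkhead motif TGTTTAC in 3 windows, of *Cyp2c38* and *Cyp2c39* (3.65%). AGGTCA was present in *Cyp2c29*, *Cyp2c39* and *Cyp2c70* (16.3% of all windows), and AGTTCA in *Cyp2c39*, *Cyp2c40* and *Cyp2c50* (14.0%). No window of the family held 2 copies of either motif as a direct repeat spaced by NNNN (0.0274% of all windows) or NNN (0.0122%), or as an everted repeat spaced by NNNNNN (0.00913%). Related genes share ancestry, so these windows are not independent, and sequence further upstream was not searched.

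Genes were called when a probe passed a Benjamini-Hochberg adjusted p of at most 0.05 over all tested probes (limma) and a fold change above 1.5. In WT mice, PCN raised 3 of the 9 tested members, *Cyp2c55*, *Cyp2c38* and *Cyp2c29*, against 4.25% of all tested genes, and lowered 0, against 2.83%. Among *Pxr*-/- mice, PCN raised 0 members (1.6% of genes) and lowered 0 (0.95%). The PCN effect was larger in WT than in *Pxr*-/- mice for 2 members, *Cyp2c55* and *Cyp2c38* (0.883% of genes), and smaller for 0 (0.29%). Without PCN, 3 members, again *Cyp2c55*, *Cyp2c38* and *Cyp2c29*, were higher in *Pxr*-/- CONT than in WT CONT (0.252% of genes), and 0 were lower (0.0855%). Under PCN, 1 member, *Cyp2c55*, was lower in *Pxr*-/- than in WT mice (1.54% of genes) and 0 were higher (0.841%). These comparisons share groups of mice and are not independent of each other. The median log2 change over the 9 members was -0.01 in WT mice (all genes -0.02) and 0.46 in *Pxr*-/- mice (all genes -0.01). In *Pxr*-/- mice 8 of 9 members had a positive value although none was called. *Cyp2c44* and *Cyp2c70* were at only 0.06 and 0.02 there and changed sign under other settings. The 0.46 is the value of *Cyp2c37*, which moved with *Cyp2c50* and *Cyp2c54* from mouse to mouse, so the members are not separate measurements. The share of positive values over all genes is not given.

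Markers of other liver cells moved with PCN in part. Of 6 stellate cell markers, *Col1a1* (3.17 in WT, 1.96 in *Pxr*-/- mice) and *Col3a1* (2.18 and 1.22) rose. Other *Col3a1* probes called in WT mice gave smaller rises, of 0.996 and 0.998. The summed signal of the list ran from 14.35 to 15.11 (log2) in WT CONT and from 14.78 to 15.24 in WT PCN. Of 5 tested cholangiocyte markers *Sox9* rose by 0.76 in WT mice, the sum running from 10.50 to 12.20 in WT CONT and from 11.68 to 12.96 in WT PCN. The 2 tested intestinal markers, *Fabp2* (-1.55) and *Lgals4* (-1.34), fell in WT mice. In *Pxr*-/- mice 1 of them was also called lower, and 0 were called in the difference of the effects. Of the 6 Kupffer cell and 6 sinusoidal endothelial cell markers 0 were called with PCN in either genotype, and of 10 periportal markers *Pck1* fell by 1.70 in WT and *Gls2* by 0.76 in *Pxr*-/- mice. The summed signal of the periportal list ran from 18.55 to 19.20 in WT CONT and from 18.40 to 18.53 in WT PCN. It ran from 18.70 to 19.27 in *Pxr*-/- CONT and from 18.43 to 18.84 in *Pxr*-/- PCN. Such a sum weighs the brightest genes most. The median log2 change with PCN over the 10 markers was alike in both genotypes, -0.18 in WT and -0.19 in *Pxr*-/- mice. Of 3 tested pancreas markers 0 were called. The part of these cells in the *Cyp2c* values was not tested. Of the 8 hepatocyte markers, 0 were called with PCN in WT mice and 1 was called higher in *Pxr*-/- mice. Under PCN, 2 of them were called higher in *Pxr*-/- than in WT mice, and for 1 the difference of the PCN effects (WT minus *Pxr*-/-) was called negative.

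**Figure D1:**
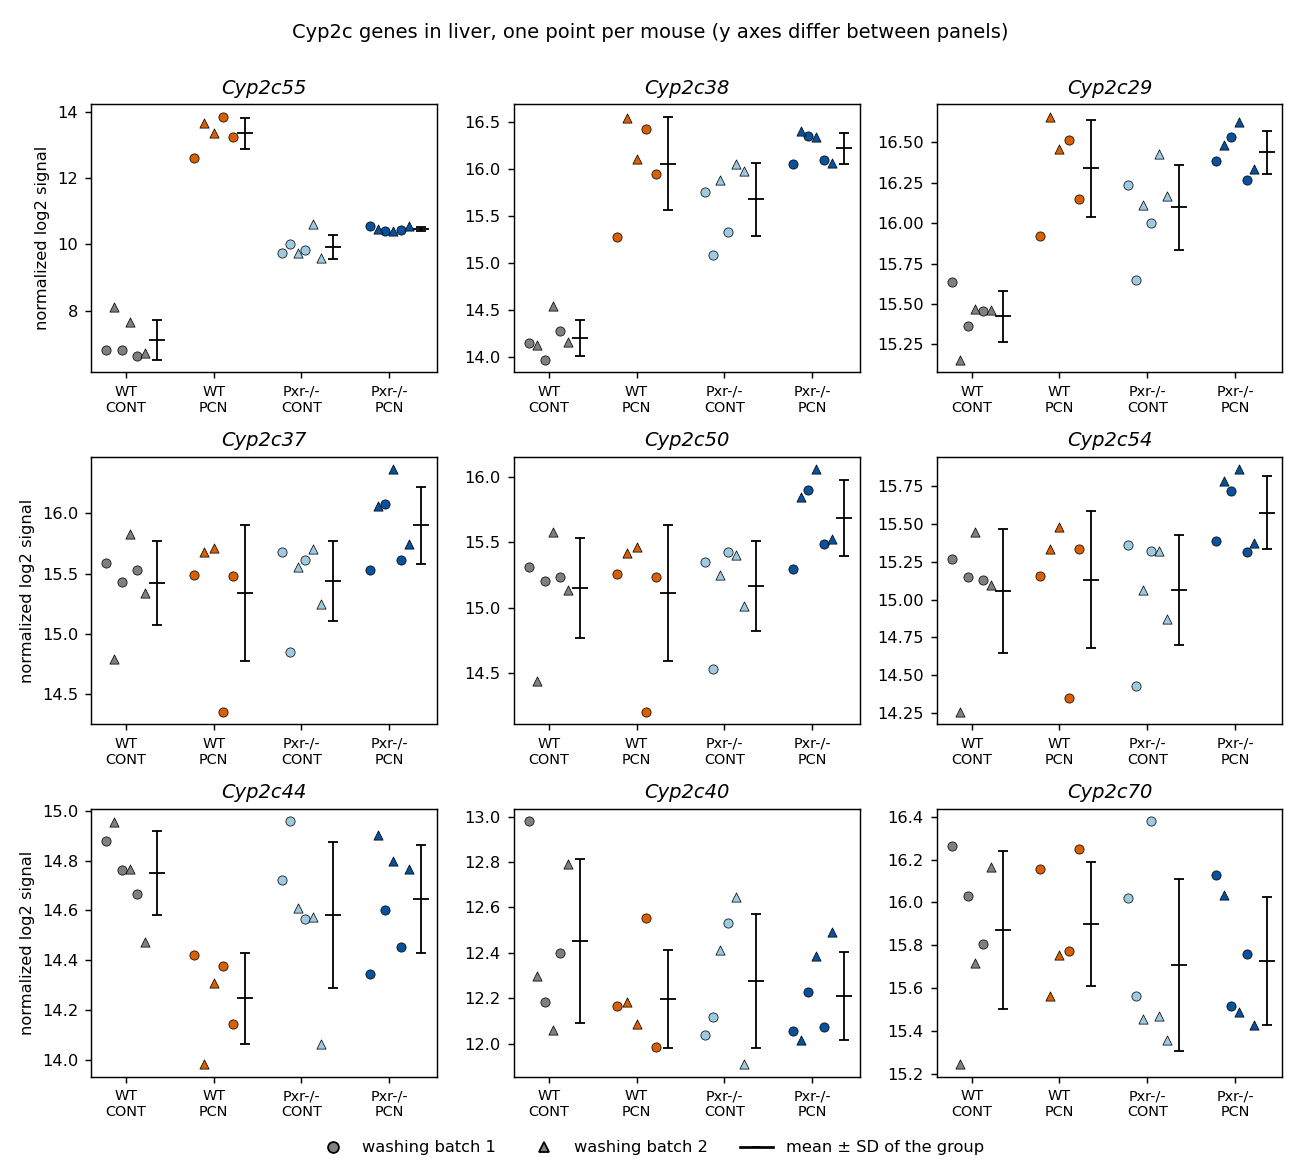
Normalized log2 signal (y axis, its range differing between panels) of the 9 tested *Cyp2c* genes in each mouse of the 4 groups (x axis), with circles for washing batch 1, triangles for washing batch 2 and bars for the group mean ± SD. *Cyp2c55*, *Cyp2c38* and *Cyp2c29* separate WT CONT from the other 3 groups, while *Cyp2c37*, *Cyp2c50* and *Cyp2c54* share their lowest mouse in WT CONT, in WT PCN and in *Pxr*-/- CONT.

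*Cyp2c55* encodes a hydroxylase of arachidonic acid found in liver and gut. The normalized log2 signal of its brighter probe in WT CONT mice was lowest at 6.64, with a median of 6.81 and a highest value of 8.10. The 5 WT PCN mice stood at 12.61, 13.68, 13.35, 13.86 and 13.25. *Pxr*-/- CONT mice ran from 9.60 through a median of 9.79 to 10.62, and *Pxr*-/- PCN mice from 10.40 through 10.45 to 10.56. Thus WT CONT mice were all below, and WT PCN mice all above, every *Pxr*-/- mouse (0.411% of probes were higher without overlap in *Pxr*-/- CONT than in WT CONT, and 3.2% lower without overlap in *Pxr*-/- PCN than in WT PCN). The spread in *Pxr*-/- PCN (SD 0.07, n = 6) was narrower than in the much dimmer WT CONT (SD 0.60, n = 6). On the other *Cyp2c55* probe these SDs were 0.15 and 0.38, and the difference in spread was not tested.

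PCN raised this probe in WT mice by 6.26 ± 0.23 (log2 change ± SE, adjusted p = 4.89e-14, limma), a 76.4-fold rise. The value in *Pxr*-/- mice was 0.54 ± 0.22 (1.46-fold, adjusted p = 0.140), which did not pass, with a 95% interval from 0.09 to 0.99. The effects differed by 5.72 ± 0.31 (adjusted p = 1.89e-10). The groups without PCN also differed, *Pxr*-/- CONT standing 2.80 ± 0.22 above WT CONT (6.99-fold, adjusted p = 1.53e-07), and under PCN the difference of *Pxr*-/- from WT mice was -2.91 ± 0.23 (adjusted p = 2.64e-08). The other probe, in coding sequence and printed above, gave 5.72, 0.40, 5.32, 2.43 and -2.89 for the same comparisons in that order, with the same calls. Within washing batch 1 and batch 2 alone, the rise in WT mice was 6.49 and 6.02, and the *Pxr*-/- CONT difference was 3.11 and 2.50.

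*Cyp2c38*, an arachidonic acid epoxygenase, measured 13.97 at the lowest, 14.15 at the median and 14.54 at the highest in WT CONT. The WT PCN mice measured 15.27, 16.54, 16.10, 16.42 and 15.94. In *Pxr*-/- CONT the lowest, median and highest values were 15.08, 15.81 and 16.05, and in *Pxr*-/- PCN they were 16.05, 16.22 and 16.41. All mice of the 3 other groups exceeded every WT CONT mouse, and these 3 groups overlapped each other.

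The rise with PCN in WT mice was 1.89 ± 0.17 (3.70-fold, adjusted p = 8.11e-08, limma). For *Pxr*-/- mice it was 0.54 ± 0.16 (adjusted p = 0.0427), but the 1.45-fold change stayed under the fold threshold, so the gene was not called. The difference of the effects was 1.35 ± 0.23 (adjusted p = 0.00183). It was 0.97 (adjusted p = 0.288) within batch 1 and 1.75 (adjusted p = 0.00921) within batch 2. *Pxr*-/- CONT exceeded WT CONT by 1.48 ± 0.16 (2.78-fold, adjusted p = 2.07e-05), with 1.26 (adjusted p = 0.202) and 1.70 (adjusted p = 0.00426) within the batches. Under PCN the genotypes were 0.13 apart with a 95% interval from -0.21 to 0.47, so a genotype difference of the size seen in CONT mice lay outside the interval.

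*Cyp2c29*, an arachidonic acid epoxygenase abundant in untreated mouse liver, had smaller differences of the same pattern. WT CONT values had a lowest, median and highest of 15.15, 15.46 and 15.63. The WT PCN mice gave 15.92, 16.66, 16.46, 16.51 and 16.15. *Pxr*-/- CONT ran from 15.65 through 16.14 to 16.43 and *Pxr*-/- PCN from 16.27 through 16.43 to 16.63. WT CONT lay below all the other mice, the gap to the nearest *Pxr*-/- CONT mouse being narrow.

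The gene rose by 0.93 ± 0.12 with PCN in WT mice (1.91-fold, adjusted p = 2.14e-05, limma). Its value in *Pxr*-/- mice was 0.34 ± 0.12 (adjusted p = 0.0853). The difference of the effects, 0.59 ± 0.17, did not pass (adjusted p = 0.0898), but passed when *Pxr*-/- CONT replicate 2 (0.67, adjusted p = 0.0347) or WT PCN replicate 1 (0.68, adjusted p = 0.0339) was left out. *Pxr*-/- CONT stood 0.68 ± 0.12 above WT CONT (1.60-fold, adjusted p = 0.00652), which was 0.48 (adjusted p = 0.636) within batch 1 and 0.87 (adjusted p = 0.0317) within batch 2. With PCN the genotypes differed by 0.09, with an interval from -0.17 to 0.34. At signals this high the arrays flagged no spot of *Cyp2c29* or any other member as saturated.

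**Figure D2:**
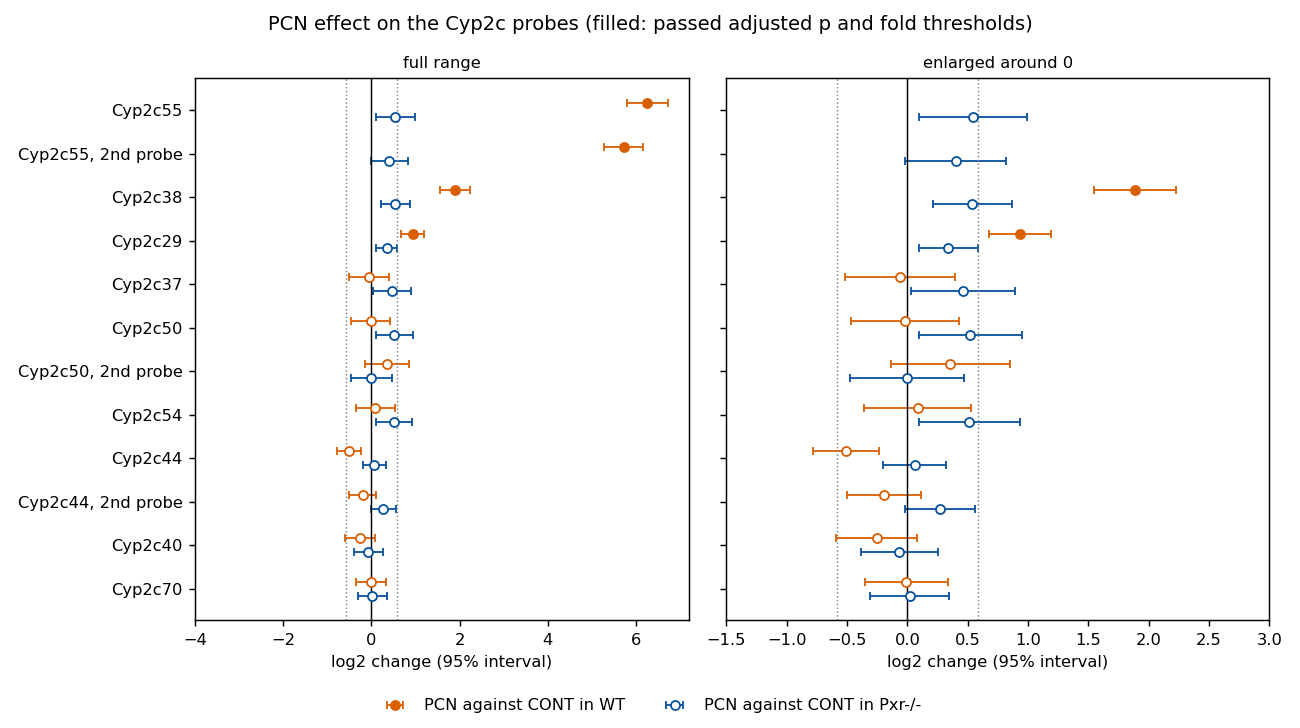
Log2 change with PCN (x axis, points with 95% intervals) of the 12 tested *Cyp2c* probes (y axis) in WT and *Pxr*-/- mice, shown over the full range and enlarged around 0, with filled points for calls and dotted lines at a fold change of 1.5. The WT points of *Cyp2c55*, *Cyp2c38* and *Cyp2c29* stand clear of 0, at 6.26, 1.89 and 0.93 for the brighter probe, and no *Pxr*-/- point is filled.

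**Figure D3:**
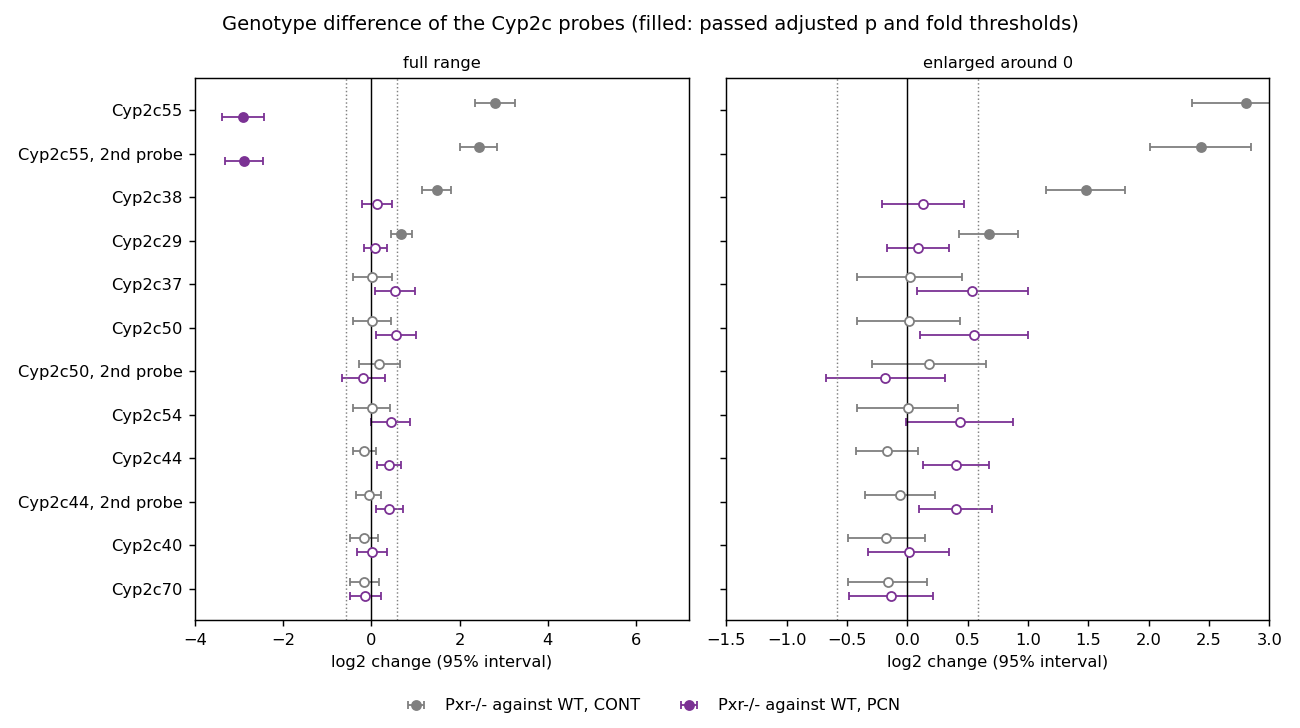
Log2 difference of *Pxr*-/- from WT mice (x axis, points with 95% intervals) for the same probes (y axis) in CONT and in PCN mice, with filled points for calls. *Cyp2c55* turns from 2.80 in CONT to -2.91 in PCN mice, while *Cyp2c38* and *Cyp2c29* fall from 1.48 and 0.68 to 0.13 and 0.09.

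*Cyp2c44*, an epoxygenase gene outside the cluster, was the member with the clearest decrease. Its brighter probe had a lowest, median and highest log2 signal of 14.47, 14.76 and 14.96 in WT CONT. In WT PCN mice it was 14.42, 13.98, 14.31, 14.38 and 14.14, all below WT CONT. It spanned 14.06 to 14.96 in *Pxr*-/- CONT and 14.34 to 14.90 in *Pxr*-/- PCN, both overlapping WT CONT. Besides the 3 members that rose without overlap (5.53% of probes), *Cyp2c44* was thus the 1 member lower without overlap in WT mice (6.16% of probes). The change was -0.51 ± 0.13 (adjusted p = 0.00781, limma), short of the fold threshold, against 0.06 in *Pxr*-/- mice, and the difference of -0.57 ± 0.18 did not pass (adjusted p = 0.129). The second probe gave -0.19 in WT mice and 0.27 in *Pxr*-/- mice, neither of which passed, with overlapping groups. Under all 36 alternative settings given below, the *Cyp2c44* change in WT mice stayed negative and was not called. Adjusted p under these settings reached 0.188 (limma), and the change was weakest, at -0.26, with the authors' deposited values.

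*Cyp2c37*, *Cyp2c50* and *Cyp2c54* are neighbouring genes known to respond to CAR activators, and none was called in any comparison. In WT mice their changes with PCN were -0.06, -0.02 and 0.08. In *Pxr*-/- mice the changes were 0.46, 0.52 and 0.51, with adjusted p of 0.200, 0.135 and 0.135 (limma) and 95% intervals that together ran from 0.03 to 0.95. *Pxr*-/- PCN mice had higher means than WT PCN mice by 0.54, 0.55 and 0.43, again without passing (adjusted p = 0.136, 0.119 and 0.221). A second *Cyp2c50* probe, which reads another transcript variant at a much dimmer signal, gave 0.36 in WT and -0.0023 in *Pxr*-/- mice, the opposite order of the main probe, and neither value passed.

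The same mouse was lowest for all 3 genes in each of 3 groups. In WT CONT replicate 2 the log2 signals of *Cyp2c37*, *Cyp2c50* and *Cyp2c54* were 14.79, 14.44 and 14.26, against group medians of 15.48, 15.22 and 15.14. In WT PCN replicate 4 they were 14.35, 14.20 and 14.35, against 15.49, 15.26 and 15.33, and in *Pxr*-/- CONT replicate 2 they were 14.85, 14.54 and 14.43, against 15.58, 15.30 and 15.19. By the gap to the nearest mouse over the range of the group (Dixon's test), WT PCN replicate 4 stood apart for all 3 genes, WT CONT replicate 2 for *Cyp2c54* alone and *Pxr*-/- CONT replicate 2 for none. In *Pxr*-/- PCN the lowest values were 15.53, 15.29 and 15.32. The same 3 mice also had the lowest sum of 12 pericentral hepatocyte markers (genes of the cells around the central vein, such as *Glul* and *Cyp2e1*) in their groups, 18.80, 18.50 and 18.78 on the log2 scale, against group medians of 18.92, 18.91 and 18.99. That sum spanned 18.80 to 18.93 in WT CONT, 18.50 to 18.97 in WT PCN, 18.78 to 19.09 in *Pxr*-/- CONT and 19.04 to 19.23 in *Pxr*-/- PCN. Of the 12 markers, 11 had positive values with PCN in *Pxr*-/- mice and 12 had higher values in *Pxr*-/- PCN than in WT PCN. *Cyp1a2*, *Glul*, *Oat* and *Gulo* were called there, at 0.84, 0.62, 0.64 and 0.71, against 0.841% of all tested genes called higher. The share of positive values over all genes is not given. All markers were measured in the same mice, so these counts are not of separate measurements. The part of the pericentral cells in the *Cyp2c* values was not tested, and in bulk tissue fewer cells of a kind cannot be told apart from less RNA per cell.

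**Figure D4:**
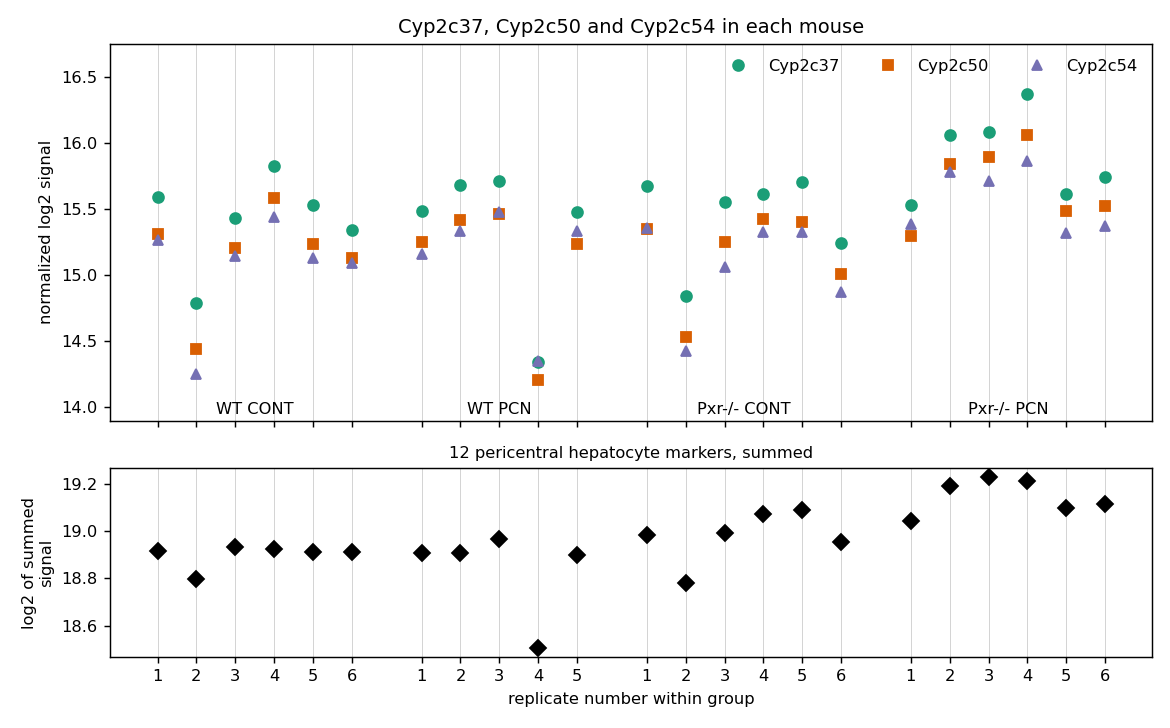
Upper panel, normalized log2 signal (y axis) of *Cyp2c37*, *Cyp2c50* and *Cyp2c54* in each mouse, by group and replicate number (x axis); lower panel, the log2 of the summed signal of 12 pericentral hepatocyte markers in the same mice. WT CONT replicate 2, WT PCN replicate 4 and *Pxr*-/- CONT replicate 2 are lowest in their groups in both panels.

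The members were also compared by how single mice departed from the mean of their group. Over 23 mice these deviations had a Pearson r of 0.99 between *Cyp2c37* and *Cyp2c50*, 0.97 between *Cyp2c50* and *Cyp2c54* and 0.96 between *Cyp2c37* and *Cyp2c54*. The probes of *Cyp2c37* and *Cyp2c50* share 12 bases, and that of *Cyp2c37* also lists a *Cyp2c50* transcript, whereas the *Cyp2c54* probe lists *Cyp2c54* alone. *Cyp2c29* and *Cyp2c38* had an r of 0.84. The matched transcripts of their probes gave no other gene, but only 1 of 3 was matched for *Cyp2c38*. Of the 36 member pairs 21 were positive, with a median of 0.13, and the lowest was -0.52 for *Cyp2c55* and *Cyp2c70*. With the washing batch removed, a setting chosen after seeing the data, *Cyp2c37*, *Cyp2c50* and *Cyp2c54* gave 0.97 to 0.99 and *Cyp2c29* with *Cyp2c38* 0.83, while *Cyp2c55* with *Cyp2c70* moved to -0.41. All values come from the same arrays, so shared array effects enter each of them.

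**Figure D5:**
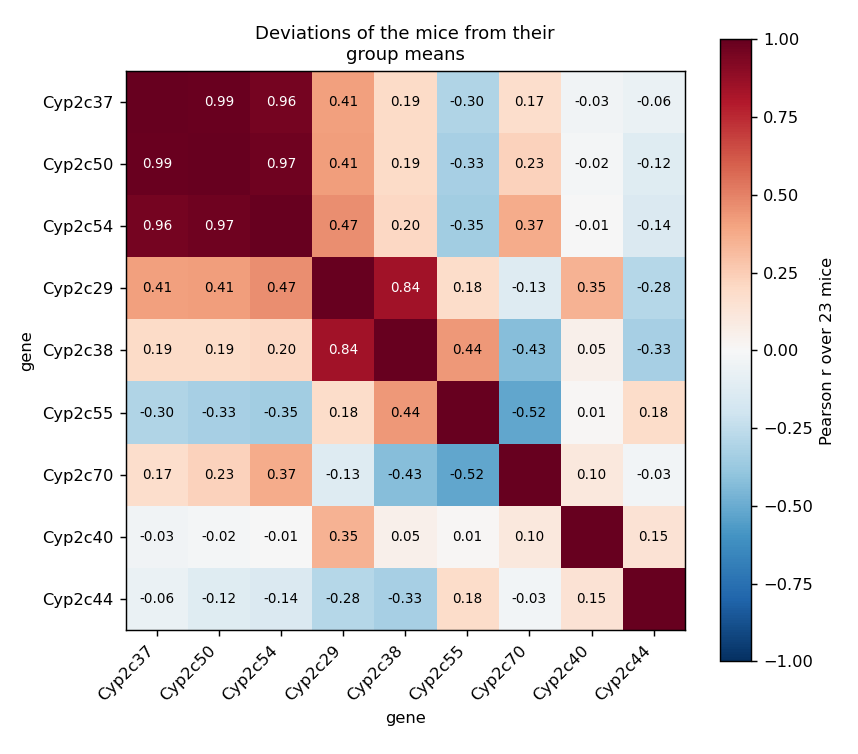
Pearson r over 23 mice (colour and printed value) of the deviations from group means for each pair of the 9 tested *Cyp2c* genes (both axes). *Cyp2c37*, *Cyp2c50* and *Cyp2c54* form a block from 0.96 to 0.99, and *Cyp2c29* with *Cyp2c38* reaches 0.84.

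The 2 remaining tested members showed no call. *Cyp2c70*, the muricholic acid enzyme, had median log2 signals of 15.92 in WT CONT, 15.77 in WT PCN, 15.52 in *Pxr*-/- CONT and 15.64 in *Pxr*-/- PCN, and all 4 ranges overlapped. Its change with PCN was -0.01 in WT mice, with a 95% interval from -0.35 to 0.34, and 0.02 in *Pxr*-/- mice, from -0.31 to 0.35, so that a rise of the size seen for *Cyp2c29* in WT mice lay outside both intervals. *Cyp2c40*, an arachidonic acid hydroxylase gene whose probe also lists *Cyp2c68*, had medians of 12.35, 12.16, 12.27 and 12.15 in the same order, and its changes of -0.26 and -0.07 did not pass (adjusted p = 0.279 and 0.853). *Cyp2c39*, known as a retinoic acid hydroxylase gene, was not well above background on any of the 23 arrays. Its raw log2 median signal, not normalized, lay between 4.52 and 5.09, and no change is given for it.

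The other 6 *Cyp2c* genes on the array were looked at beside the members, and 5 of them could be tested. The pseudogene *Cyp2c53-ps* rose by 1.12 ± 0.30 with PCN in WT mice (adjusted p = 0.0104) and was 1.58 ± 0.29 higher in *Pxr*-/- CONT than in WT CONT (adjusted p = 0.00977). Its log2 signals were low, from 5.43 to 6.03 in WT CONT, 5.65 to 7.79 in WT PCN and 6.30 to 7.74 in *Pxr*-/- CONT. *Cyp2c67* fell by 0.62 in WT mice (adjusted p = 0.00499), and its relatives *Cyp2c68* (-0.50) and *Cyp2c69* (-0.58) missed the fold threshold. The probes of *Cyp2c67* and *Cyp2c68* share a stretch of 25 bases. The probes of *Cyp2c68* and *Cyp2c69* list 3 and 4 genes of this branch, with the member *Cyp2c40* in both and *Cyp2c67* in that of *Cyp2c69*. The values of *Cyp2c67*, *Cyp2c68* and *Cyp2c69* are thus not separate measurements. The falls of *Cyp2c68* and *Cyp2c69* in WT mice (adjusted p = 0.0162 and 0.00697, limma) may include *Cyp2c40* transcripts. The dimmer *Cyp2c40* probe gave -0.26 there (adjusted p = 0.279). *Cyp2c66* was close to the background and not called, and *Cyp2c65* was not bright enough to be tested.

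Among the drug-metabolising *Cyp2b* and *Cyp3a* genes, 9 of 10 tested were called higher with PCN in WT mice and 0 in *Pxr*-/- mice. *Cyp3a11*, the main PXR target in mouse liver, rose by 3.55 in WT mice, and *Cyp2b10*, a CAR target, by 6.76. In *Pxr*-/- mice the value of *Cyp2b10* was 1.57 ± 0.66, which did not pass (adjusted p = 0.166, limma). Only *Cyp3a25* (0.66), *Cyp3a57* (0.73) and *Cyp3a59* (0.68) of this list were also called higher in *Pxr*-/- CONT than in WT CONT. Over the 23 arrays, the named genes whose levels were most like those of *Cyp2c55* were *Cyp3a25* (Pearson r = 0.95), *Cyp3a57* (0.95) and *Akr1b7* (0.95). Those most like *Cyp2c38* were *Papss2* (0.87), *4931406C07Rik* (0.87) and *Aldh1a1* (0.85). These r values span all 4 groups, so they describe shared group differences.

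Of 21 tested receptors and hepatocyte factors that act on *Cyp2c* genes, 1 rose and 3 fell with PCN in WT mice. *Cebpb* rose by 0.68, and *Cebpa* (-0.72), the corepressor *Nr0b2* (-1.03) and the coactivator *Ppargc1a* (-1.20) fell. *Nr1i3*, the gene for CAR, rose in *Pxr*-/- mice by 0.97 ± 0.19 (adjusted p = 0.00531, limma), against -0.30 in WT mice, and its effects differed by -1.27 (adjusted p = 0.0213). *Foxa3* rose there by 0.67 and *Ppargc1a* fell by 0.96. Without PCN 0 of the 21 differed between the genotypes, where *Nr1i3* was at -0.41 (adjusted p = 0.438).

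Of 16 tested genes for P450 electron supply and heme, 4 rose with PCN in WT mice and 0 fell. *Por*, the electron donor of all microsomal P450 enzymes, rose by 1.04 in WT mice (0.62 in *Pxr*-/- mice, also called), and *Alas1*, the first enzyme of heme synthesis, by 0.70 in WT mice, together with the heme-degrading *Hmox1* (0.59) and, through a second probe, the reductase *Cyb5r3* (0.64). A second *Alas1* probe was also 1.12 higher in *Pxr*-/- CONT than in WT CONT, the 1 call of this list between the untreated genotypes. Of 8 tested genes that make or hydrolyse epoxides, *Ephx1* rose by 0.63 in WT mice, while *Ephx2*, which hydrolyses the arachidonic acid epoxides that CYP2C enzymes form, fell by 0.62 and *Cyp2j9* fell by 0.73. None of these 8 was called in *Pxr*-/- mice. Of 16 genes of bile acid synthesis and transport, *Akr1d1* was called higher in both genotypes (1.59 in WT, 0.71 in *Pxr*-/- mice), and *Cyp27a1* rose by 0.67 in *Pxr*-/- mice. The counts of these lists, which were made with results of the data known, describe the setting of the members and are not tests of the lists.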

How the data were processed

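Liver RNA of 23 mice was hybridised to Agilent 1-colour arrays. The deposited scanner output (Feature Extraction 10.10.1.1, per the file headers) gives each spot a linear intensity, not normalized between arrays. The authors also deposited log2 values, filtered, corrected for washing batch and normalized by the method named in the study, for 32574 probes, with column medians from 7.54 to 8.01; how arrays were filtered and stacked for this is not stated in detail. These served as an alternative. They were set against the values used here array by array (r of at least 0.9996).

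Here log2 median signals were used, outlier spots (2225 over all arrays) were set to missing, spots of a probe were averaged, and probes well above background on over 50% of the arrays of at least 1 group were kept and quantile normalized. A probe was well above background by the scanner's own flag, and 29510 to 33321 probes were so per array; the number of arrays limits the precision. Limma 3.58.1 in R 4.3.3 fitted all arrays with a mean per group and an additive washing batch term (18 residual degrees of freedom). P-values were Benjamini-Hochberg adjusted over 32087 probes. A gene was represented by its brightest kept probe and counted as called when any probe was called. Values after ± are SE of a change, and 95% intervals come from the fit. Every member was named with all its probes, the 3 genes most correlated with each member called in the difference of the effects were named, and called genes of fixed lists could be named. The members and lists were chosen with earlier results of these data known. The fit was tested on simulated data. Alternatives covered the signal, background correction, scaling, filter, batch, slide, replicate block, probe averaging and leaving out each mouse. Promoters were searched on both strands with Python; coordinates are mm9 for probes and GRCm38.p6 for promoters. Of 21056 gene names 71.7% matched RefSeq by current symbol.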

Additional observations from a re-analysis of the deposited data

Results flagged for a closer look

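*Cyp2c55* responded to PCN more in WT than in *Pxr*-/- mice on both probes, by 5.72 and 5.32 on the log2 scale, and *Cyp2c38* by 1.35, each by the test of the difference itself (limma, adjusted p = 1.89e-10, 1.89e-10 and 0.00183).

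In 6 of 48 checks of a probe within a group, 1 mouse stood far from the rest. Chance gives about 1 in 20 for separate checks, but 5 of the 6 came from *Cyp2c37*, *Cyp2c50* and *Cyp2c54* in 2 mice, and the brighter probes of these genes correlate at 0.96 to 0.99 from mouse to mouse, so the checks are not independent and the count is not read against that rate. WT PCN replicate 4 was lowest for *Cyp2c37* (14.35), for both *Cyp2c50* probes (14.20 and 8.18) and for *Cyp2c54* (14.35). WT CONT replicate 2 was lowest for *Cyp2c54* (14.26). *Pxr*-/- PCN replicate 6 was highest on the second *Cyp2c55* probe (9.52). Without WT PCN replicate 4 the PCN effect in WT mice was 0.17 for *Cyp2c37*, 0.19 for *Cyp2c50* and 0.27 for *Cyp2c54*, none of them called.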

How the results depend on the processing

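The WT rises of *Cyp2c55* (5.99 to 6.71), *Cyp2c38* (1.75 to 2.08) and *Cyp2c29* (0.71 to 1.20) were called under all 36 alternatives, leaving out each mouse included. The *Cyp2c55* differences between genotypes were also called under all 36, and its difference of effects under all 35 that give one. Within washing batch 1 (12 mice), 1 member (*Cyp2c55*) was called in the difference of the PCN effects and 1 in *Pxr*-/- CONT against WT CONT, where *Cyp2c38* and *Cyp2c29* did not pass; fewer mice enter such a fit. *Cyp2c38* passed the threshold in *Pxr*-/- mice, as 1 member called higher, with the authors' deposited values (0.61, adjusted p = 0.0401) and without *Pxr*-/- CONT replicate 1 or 5 or *Pxr*-/- PCN replicate 6, so that leaving out single mice gave 0 to 1. The deposited values moved the median of all genes to 0.11 in WT mice, to -0.11 between the CONT groups and to -0.18 between the PCN groups, and the share of calls that were higher from 60.1% to 83.9% for WT PCN and from 35.3% to 5.16% between the PCN groups; the cause was not tested. The processed signal, scaled to the 75th percentile, gave 50.5% and 53.4% higher.

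The values that changed sign were all of genes not called in that comparison, and the cause was not tested. For PCN in WT mice the processed signal gave 0.0021 for *Cyp2c37*, 0.073 for *Cyp2c50* and 0.10 for *Cyp2c70*, the median signal scaled to its 75th percentile 0.023, 0.064 and 0.073, the deposited values 0.18, 0.23 and 0.24, and batch 2 alone 0.38 and 0.39 for the first 2. *Cyp2c70* was at 0.028 without a batch term and 0.025 in batch 1, where *Cyp2c54* was at -0.23, and the mean of both *Cyp2c50* probes was 0.17. In *Pxr*-/- mice *Cyp2c70* was at -0.0063 under 75th percentile scaling of the median signal and -0.19 in batch 1, and *Cyp2c44* at -0.28 in batch 1. The difference of the effects of *Cyp2c70* was 0.091 with the processed signal, 0.079 with the scaled median signal, 0.20 with the deposited values, 0.0090 without a batch term and 0.21 in batch 1. Between the CONT groups *Cyp2c37*, *Cyp2c50* and *Cyp2c54* were at -0.0499, -0.062 and -0.072 with the deposited values and at -0.14, -0.15 and -0.14 in batch 1. Between the PCN groups the deposited values gave -0.12 for *Cyp2c29*, -0.0797 for *Cyp2c38* and -0.24 for *Cyp2c40*, batch 2 -0.079 and -0.053 for the first 2, and *Cyp2c40* was at -5e-04 with the processed signal, -0.0041 after normexp background correction and -0.12 in batch 1.

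Leaving out single mice gave, in WT mice, -0.20 to 0.17 for *Cyp2c37*, -0.18 to 0.19 for *Cyp2c50*, -0.086 to 0.27 for *Cyp2c54* and -0.10 to 0.086 for *Cyp2c70*. In *Pxr*-/- mice it gave -0.15 to 0.0089 for *Cyp2c40*, -0.044 to 0.14 for *Cyp2c44* and -0.084 to 0.12 for *Cyp2c70*, whose difference of effects ran from -0.13 to 0.071. Between the CONT groups the ranges were -0.13 to 0.13 for *Cyp2c37*, -0.15 to 0.13 for *Cyp2c50* and -0.17 to 0.13 for *Cyp2c54*, and between the PCN groups -0.0058 to 0.15 for *Cyp2c29*, -0.035 to 0.25 for *Cyp2c38* and -0.043 to 0.10 for *Cyp2c40*.

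The replicate numbers were not treated as pairs of mice. Deviations of same-numbered mice correlated at a mean of 0.06 (33 pairs, 13 over 0.1, highest 0.61). Those of mice with other numbers correlated at a mean of -0.01 (165 pairs, 40 over 0.1, highest 0.36). Of 23 mice, 7 correlated best with their own number. Whether the numbers mark pairs cannot be told from these values. A replicate block changed no call of a member (*Cyp2c70* in WT mice 0.0042, *Cyp2c40* between the PCN groups -0.0035). Slide as a random block (correlation 0.0095) changed none either. The fit of the compared groups alone gives no difference of effects. *Cyp2c39* is limited by its signal, which did not rise above background.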
